A study of Mus musculus with 6 samples.

Results

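Cholesterol synthesis, its control by the SREBP transcription factors and cholesterol transport were examined in 29 genes. They were chosen by symbol from a list of the pathway, with earlier results of these data known. Each library counted 24421 gene symbols. The 29 comprised 19 synthesis enzymes, 5 control genes and 5 transport genes, and each had a row in all 6 libraries. RNA came from cells sorted by flow cytometry as the endothelial population of B16F0 melanomas, a transplantable mouse melanoma line, that had grown under the skin of C57BL/6 mice for 17 days. Both groups of 3 libraries carried this tumour and received antibody at 50 mg/kg every 3 days: 15C4, which blocks the secreted glycoprotein LRG1, or control IgG. The comparison asks how 15C4 alters expression in tumour endothelium. The labels do not say whether each library is from its own mouse. The p-values therefore describe spread among libraries that could be technical replicates.

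Cells build cholesterol from acetyl-CoA through mevalonate, isoprenoid diphosphates, squalene and lanosterol. When sterols in the endoplasmic reticulum run low, SCAP carries SREBP2 to the Golgi apparatus, where its transcription factor domain is released and induces nearly every enzyme of the route. INSIG proteins hold SCAP back when sterols are plentiful, and INSIG1 is itself a target of SREBP2. SREBP1 acts more on fatty acid genes. Excess cholesterol leaves through ABCA1 and ABCG1, and in vessels the pathway sets membrane cholesterol and supplies the isoprenoids that anchor small GTPases.

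The libraries held between 5175600 and 19572202 counts, 15C4 2 being the deepest and IgG 1 the shallowest. Levels are CPM, that is counts scaled to the library total, listed below for libraries 1, 2 and 3 of a group in that order. The sort label was checked against 17 pan-endothelial markers. Together these gave 1360, 2824 and 1448 CPM in 15C4 against 1621, 2346 and 186 CPM in IgG, with Cldn5 at 0 in 15C4 3 and Erg at 0 in IgG 3. The 10 melanocyte markers, all present in every library, summed to 23526 to 28409 CPM in 15C4 and to 23650 to 28839 CPM in IgG. Melanocyte transcripts were thus abundant in every sorted library, and the genes below, which most cells use, cannot be assigned to a cell type. In bulk RNA, fewer cells of a type and less RNA per cell cannot be told apart. Lymphatic markers reached 1094 CPM in IgG 2, with 11.6 to 63.8 CPM in the other libraries. Markers of T and NK cells reached 476 CPM in IgG 1 and 219 CPM in 15C4 1, with 4.34 to 21.3 CPM in the others. In 15C4 1 nearly all of this was Ccl5 (214 CPM), with Gzma at 1.31 and Nkg7 at 1.90 CPM. In IgG 1 Gzma was at 178 CPM, Nkg7 at 105 CPM and Ccl5 at 124 CPM. Macrophage and monocyte markers lay between 0.313 and 108 CPM, fibroblast markers between 0 and 152 CPM and pericyte markers between 2.18 and 33.6 CPM. The highest macrophage and monocyte sum, in IgG 1, was mostly Tyrobp and Fcer1g (42.9 CPM each), with Csf1r at 0.386 and C1qa at 0.193 CPM. In 15C4 2 C1qc was at 19.7 CPM and Mrc1 at 13.5 CPM. The highest fibroblast sum, in 15C4 3, was nearly all Lum (151 CPM).

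None of the 29 genes passed the test across all genes, and the values below describe where the libraries lay. Summed over the 19 enzymes, the level was 1652, 2912.5 and 2120 CPM in 15C4 against 1398, 1053 and 1649 CPM in IgG, or 2228 ± 637 against 1367 ± 299 CPM (SD, n = 3 each), a ratio of 1.63. The groups nearly met, since 15C4 1 stood at 1652 CPM and IgG 3 at 1649 CPM. Without Msmo1, the largest contributor at 23.8% of the sum, the ratio was 1.54. Summed control genes stood at 576, 485 and 271 CPM in 15C4 against 431, 635 and 533 CPM in IgG. Transport genes summed to 171, 299 and 216 CPM against 242, 445 and 115 CPM. Both of these sums overlapped between the groups, and their ratios were 0.833 and 0.856. Insig2 made up 69.7% of the control sum.

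**Figure D1:**
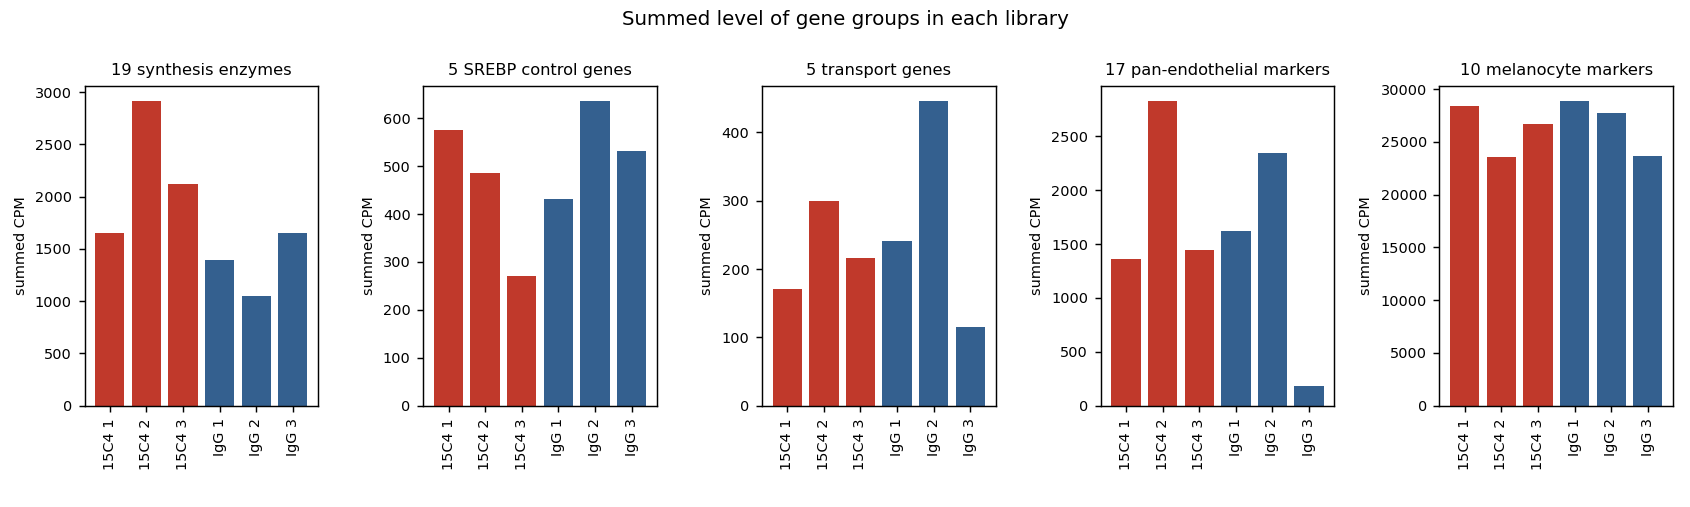
Summed CPM (y axes, linear from 0) of 3 groups of the 29 genes and of 2 marker lists in each library (x axes; red bars 15C4, blue bars IgG). The enzyme sum was highest in 15C4 2 at 2912.5 CPM, and IgG 3, with 186 CPM of endothelial markers, held 1649 CPM of enzyme transcripts.

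Of the 19 enzymes, 18 had a fitted log2 fold change (15C4 over IgG) above 0, with a median of 0.83. Among all 29 genes 24 lay above 0 (median 0.50), where 50.7% of the 11144 tested genes did (median 0.01). All 29 passed the filter on low counts. By the quasi-likelihood test of edgeR, 0 of the 29 genes passed an adjusted p of 0.05, against 0% of all tested genes (0 of 11144), and each of the 29 had an adjusted p of 0.9997. DESeq2 called 23 genes, 0 of them among the 29. Idi1 and Sc5d, 2 of the 29 genes, had an unadjusted p under 0.05, both higher in 15C4, where 1.26% of tested genes were higher and 1.33% lower. In CPM, 5 of the 29 genes had every 15C4 library above every IgG library, namely Pmvk, Idi1, Fdps, Sqle and Sc5d, and 0 had every 15C4 library below. The background over all tested genes was 2.88% above and 6.64% below. The 29 genes were listed with earlier results of these data known. Setting them beside shares of all tested genes is therefore description and not a test. With CPM scaled by TMM factors the 5 became 3 (Pmvk, Idi1 and Fdps), where 3.58% of tested genes lay above. In the authors' deposited table, Idi1 had the smallest adjusted p of the 29 genes, 0.0691, with a log2 fold change of -2.05 in its orientation of IgG over 15C4.

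15C4 2, the deepest library, held the highest level of 11 of the 19 enzymes, and IgG 2 the lowest of 9. Without 15C4 2, 16 of 19 enzymes lay above 0, their median was 0.41, the log2 ratio of the summed enzymes was 0.46 in place of 0.70, and 0 of the 29 genes had an unadjusted p under 0.05. Leaving out IgG 3, the library with few endothelial transcripts, gave 18 of 19 enzymes above 0, a median of 0.99 and a log2 ratio of 0.86. The parts of depth and cell content in these differences were not tested.

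**Figure D2:**
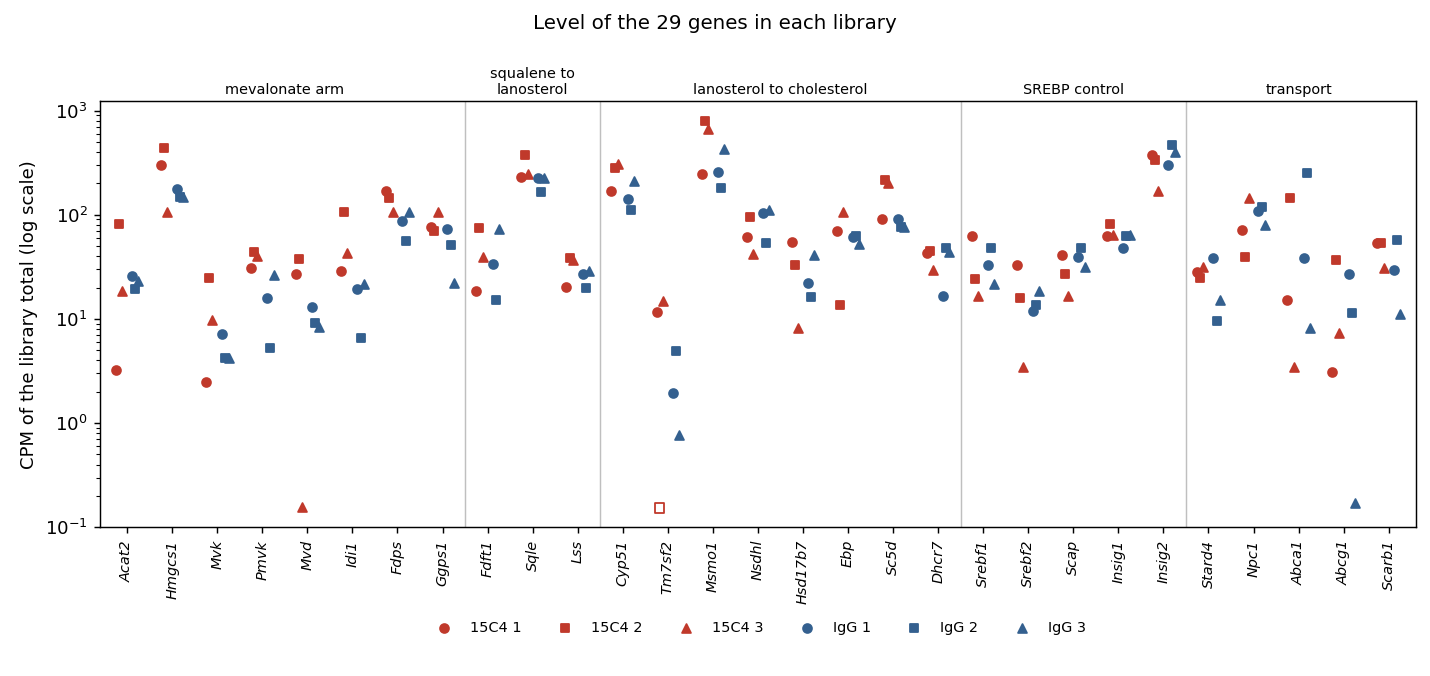
CPM on a log axis (y) of each of the 29 genes (x, ordered by role) in each library (red 15C4, blue IgG; circles, squares and triangles are libraries 1, 2 and 3). The open square marks Tm7sf2 in 15C4 2, which had 0 counts and is drawn at the level of 3 counts, 0.153 CPM.

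SREBP target promoters often carry a CCAAT box, bound by NF-Y, beside a sterol regulatory element, so the stretches upstream of 5 enzymes are shown. Idi1, Pmvk and Sc5d are among the enzymes whose libraries did not overlap, Msmo1 had the highest median level per length among the enzymes, and Hmgcs1 held the 1 match to the element searched among the 22 genes with a promoter entry. They cover 250 bases before the annotated start on GRCm38.p6, from RefSeq, 5′ to 3′ on the gene's strand. Capitals mark CCAAT or its reverse complement, the E-box CACGTG and the sterol regulatory element TCACNCCAC. Pmvk has a further annotated start, whose window (chr3:89459321-89459570, not printed) held no match to any of these.
Idi1 (chr13:8885356-8885605, plus strand): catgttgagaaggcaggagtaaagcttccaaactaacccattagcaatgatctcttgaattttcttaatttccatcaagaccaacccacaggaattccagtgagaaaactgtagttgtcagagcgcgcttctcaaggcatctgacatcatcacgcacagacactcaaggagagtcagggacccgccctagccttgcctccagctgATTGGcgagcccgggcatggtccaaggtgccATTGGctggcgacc
Pmvk (chr3:89454291-89454540, plus strand): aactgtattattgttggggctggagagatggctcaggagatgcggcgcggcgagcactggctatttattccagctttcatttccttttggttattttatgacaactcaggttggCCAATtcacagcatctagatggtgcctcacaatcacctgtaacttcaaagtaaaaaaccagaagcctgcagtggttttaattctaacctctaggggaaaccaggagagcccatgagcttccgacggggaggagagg
Sc5d (chr9:42264301-42264550, minus strand): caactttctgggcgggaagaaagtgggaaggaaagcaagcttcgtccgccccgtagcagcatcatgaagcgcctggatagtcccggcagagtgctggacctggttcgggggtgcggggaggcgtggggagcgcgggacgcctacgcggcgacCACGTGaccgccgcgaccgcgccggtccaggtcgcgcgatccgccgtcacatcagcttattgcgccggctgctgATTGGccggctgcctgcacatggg
Msmo1 (chr8:64733579-64733828, minus strand): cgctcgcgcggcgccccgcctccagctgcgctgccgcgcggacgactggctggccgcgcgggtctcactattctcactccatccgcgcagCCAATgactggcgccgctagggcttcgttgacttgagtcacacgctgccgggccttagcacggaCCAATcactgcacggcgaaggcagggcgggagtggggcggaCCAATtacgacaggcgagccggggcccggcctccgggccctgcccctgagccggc
Hmgcs1 (chr13:119690101-119690350, plus strand): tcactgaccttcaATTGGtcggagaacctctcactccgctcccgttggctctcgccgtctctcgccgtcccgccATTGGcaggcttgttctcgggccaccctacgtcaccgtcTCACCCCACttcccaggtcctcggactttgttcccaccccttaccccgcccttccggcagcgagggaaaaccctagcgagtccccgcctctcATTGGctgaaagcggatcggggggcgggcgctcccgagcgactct

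Promoters were found for 22 of the 29 genes, in 30 windows, since some genes have several starts. The 19 windows of synthesis enzymes came from 16 of the 19 enzymes, with none for Fdps, Sqle and Fdft1. CCAAT, searched on both strands, was present in 20 of these 30 windows (66.7%) and in 15 of the 19 windows of synthesis enzymes (78.9%), against 33.8% of all 32851 promoter windows of this length. Msmo1 and Hmgcs1 each had 3 CCAAT matches and Idi1 had 2. CACGTG was in 3 of the 19 enzyme windows (15.8%), that of Sc5d among them, and in 6.02% of all. TCACNCCAC was in 1 of the 30 windows (3.33%), that of Hmgcs1, and in 1.05% of all. The GC box GGGCGG was in 23 of the 30 windows (76.7%), against 32.7% of all windows. No matches of these motifs overlapped in the printed stretches. All 32851 windows belong to 27025 symbols, whereas 11144 genes passed the filter on low counts here, the 29 among them. The shares thus set expressed genes beside a wider set, for CCAAT and the GC box alike. A match describes the letters only.

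In the mevalonate arm, all 8 enzymes had a fitted log2 fold change above 0, between 0.71 and 2.00 with a median of 1.02. Idi1, the isomerase that interconverts the isoprenoid building blocks, stood at 28.8, 105 and 43.2 CPM in 15C4 against 19.3, 6.53 and 21.7 CPM in IgG. Its lowest 15C4 library lay above its highest IgG library, and 15C4 2 was far above the rest. The log2 fold change was 2.00 (SE 0.76, edgeR unadjusted p = 0.0288, adjusted p = 0.9997). It was 1.29 (unadjusted p = 0.168) without 15C4 2 and between 1.62 and 2.34 with any other library left out. Pmvk, phosphomevalonate kinase, was at 30.6, 43.7 and 39.9 CPM in 15C4 against 15.8, 5.29 and 26.4 CPM under IgG (log2 fold change 1.36, SE 0.75, edgeR unadjusted p = 0.106, adjusted p = 0.9997). Its 15C4 libraries were close together, and the IgG libraries spread widely with IgG 2 lowest. Without IgG 3 the log2 fold change was 1.98. Fdps makes farnesyl diphosphate, the last intermediate shared by sterols and prenyl groups. Its gene lies at chr3:89093588-89101959 (minus strand), and its level was 169, 144 and 106.1 CPM in 15C4 against 86.6, 55.5 and 105.4 CPM in IgG (0.83, SE 0.40, edgeR unadjusted p = 0.0712, adjusted p = 0.9997). 15C4 3 and IgG 3 were nearly equal.

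Hmgcs1, which makes HMG-CoA and whose promoter above holds the sterol regulatory element, was at 302, 441 and 105 CPM in 15C4 against 178, 148 and 148 CPM in IgG. 15C4 1 and 2 exceeded all IgG libraries and 15C4 3 was below them (log2 fold change 0.91, SE 0.48). Ggps1, the geranylgeranyl diphosphate synthase that feeds protein prenylation, was at 75.5, 69.1 and 107 CPM against 72.6, 51.5 and 22.02 CPM (0.89, SE 0.55). Mvd, the decarboxylase of the arm, had 1 count in 15C4 3 but 27.1 and 37.6 CPM in 15C4 1 and 2, with 8.40 to 13.1 CPM in IgG (1.13, SE 1.33). The log2 fold change of Mvd was 1.71 without 15C4 3, 0.39 without 15C4 2 and 0.079 with the replicate number as a block. Mvk, mevalonate kinase, ranged from 2.4998 to 24.5 CPM in 15C4 and from 4.20 to 7.15 CPM in IgG (1.37, SE 1.13), and without 15C4 2 its log2 fold change was 0.41. Acat2, the cytosolic thiolase of the entry step, ranged from 3.21 to 80.8 CPM in 15C4 and from 19.2 to 26.1 CPM in IgG (0.71, SE 1.02). Without 15C4 2 its log2 fold change was -0.89. Acat2 has a near-identical neighbour, Acat3, which had 50 counts in 15C4 2, 13 in IgG 2 and 0 elsewhere, so its counts are uncertain.

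**Figure D3:**
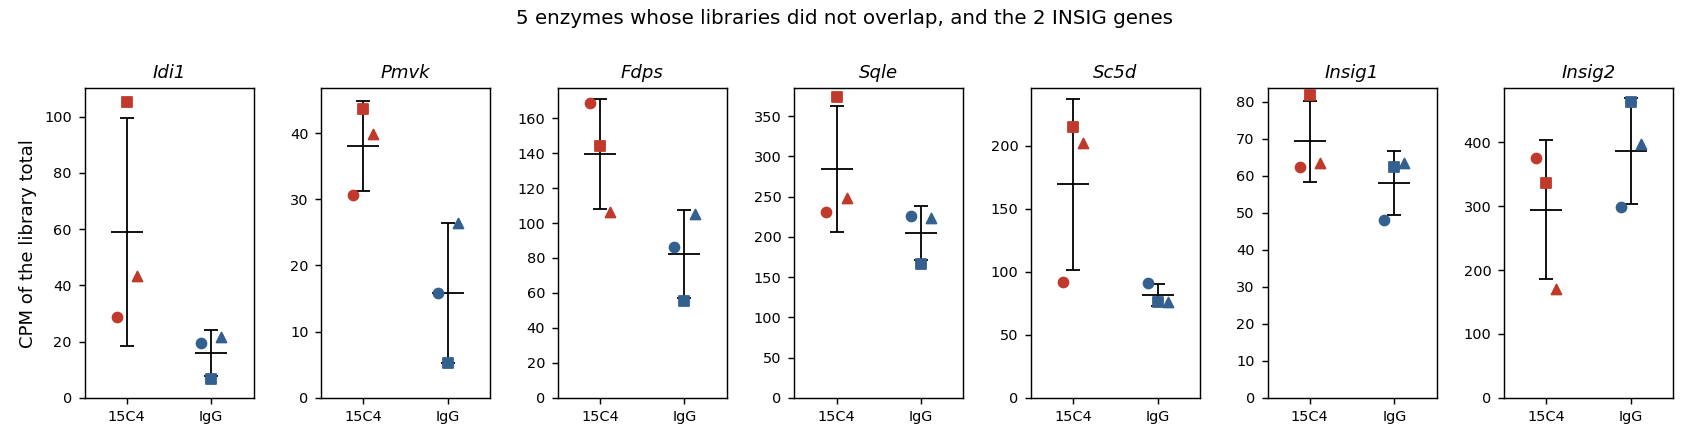
CPM (y axes, linear from 0) of the 5 enzymes whose groups did not overlap and of Insig1 and Insig2 (circles, squares and triangles are libraries 1, 2 and 3; black lines are the mean and SD, n = 3). The separation is narrow for Fdps (106.1 against 105.4 CPM) and Sc5d (91.5 against 91.2 CPM).

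The 3 enzymes of squalene formation and closure to lanosterol had log2 fold changes from 0.23 to 0.57. Sqle, squalene epoxidase, a controlling step of the later route, lies at chr15:59315077-59331192 (plus strand; GENCODE M21 on GRCm38, as for Fdps) and was at 231, 374 and 248 CPM in 15C4 against 225, 166 and 224 CPM in IgG. The groups were separate in CPM but close, and with TMM factors they overlapped (log2 fold change 0.57, SE 0.35, edgeR unadjusted p = 0.139, adjusted p = 0.9997). The log2 fold change was 0.32 without 15C4 2. Fdft1, squalene synthase, was at 18.5, 75.2 and 39.3 CPM against 33.8, 15.1 and 73.4 CPM, a full overlap (0.23, SE 0.77). Leaving out 15C4 2 gave -0.39, leaving out IgG 2 gave -0.17 and leaving out IgG 3 gave 0.99. Lss, which closes the ring to lanosterol, ranged from 20.2 to 38.6 CPM in 15C4 against 19.9 to 28.5 CPM in IgG (0.45, SE 0.62).

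From lanosterol to cholesterol, 7 of 8 enzymes had a log2 fold change above 0 (median 0.55). Sc5d, a sterol desaturase near the end of the route, was at 91.5, 215 and 202 CPM in 15C4 against 91.2, 76.3 and 76.4 CPM in IgG. Its IgG libraries were tight, 15C4 2 and 3 were well above them, and 15C4 1 was level with IgG 1 (log2 fold change 1.18, SE 0.45, edgeR unadjusted p = 0.0295, adjusted p = 0.9997). With a library left out, the log2 fold change lay between 0.98 and 1.51. Msmo1, the methylsterol monooxygenase, was at 244, 798 and 660 CPM in 15C4 against 257, 180 and 424 CPM in IgG (1.10, SE 0.53). Cyp51, the lanosterol demethylase, was at 167, 282 and 303 CPM against 140, 110 and 213 CPM (0.81, SE 0.42). For Sc5d, Msmo1 and Cyp51 alike, 15C4 1 was the lowest 15C4 library and lay within the IgG range or next to it.

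Nsdhl, which acts with Msmo1 in removing methyl groups, was the 1 enzyme fitted below 0, at 60.6, 94.2 and 41.9 CPM against 103, 53.4 and 112 CPM (log2 fold change -0.37, SE 0.50). Hsd17b7, the ketoreductase of the same complex, ranged from 8.13 to 54.4 CPM in 15C4 against 16.1 to 41.0 CPM in IgG (0.29, SE 0.78), and without 15C4 1 the log2 fold change was -0.27. Ebp, a sterol isomerase, ranged from 13.6 to 107 CPM in 15C4 and from 52.5 to 62.4 CPM in IgG (0.22, SE 0.70), and without 15C4 3 the log2 fold change was -0.50. These genes did not separate the groups. Dhcr7, the reductase of the final step, was at 29.3 to 44.5 CPM in 15C4 against 16.6 to 48.3 CPM in IgG (0.18, SE 0.60), and without IgG 1 the log2 fold change was -0.17. Tm7sf2, a sterol reductase, had 98, 0 and 94 counts in 15C4 and 10, 47 and 9 counts in IgG (1.90, SE 1.88), and limma-voom turned its log2 fold change to -1.18. Leaving out 15C4 2 gave 2.51, 15C4 3 1.19 and IgG 2 2.78 in edgeR. The count of 0 in 15C4 2, the deepest library, allows a level of up to 0.153 CPM, counting error only.

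**Figure D4:**
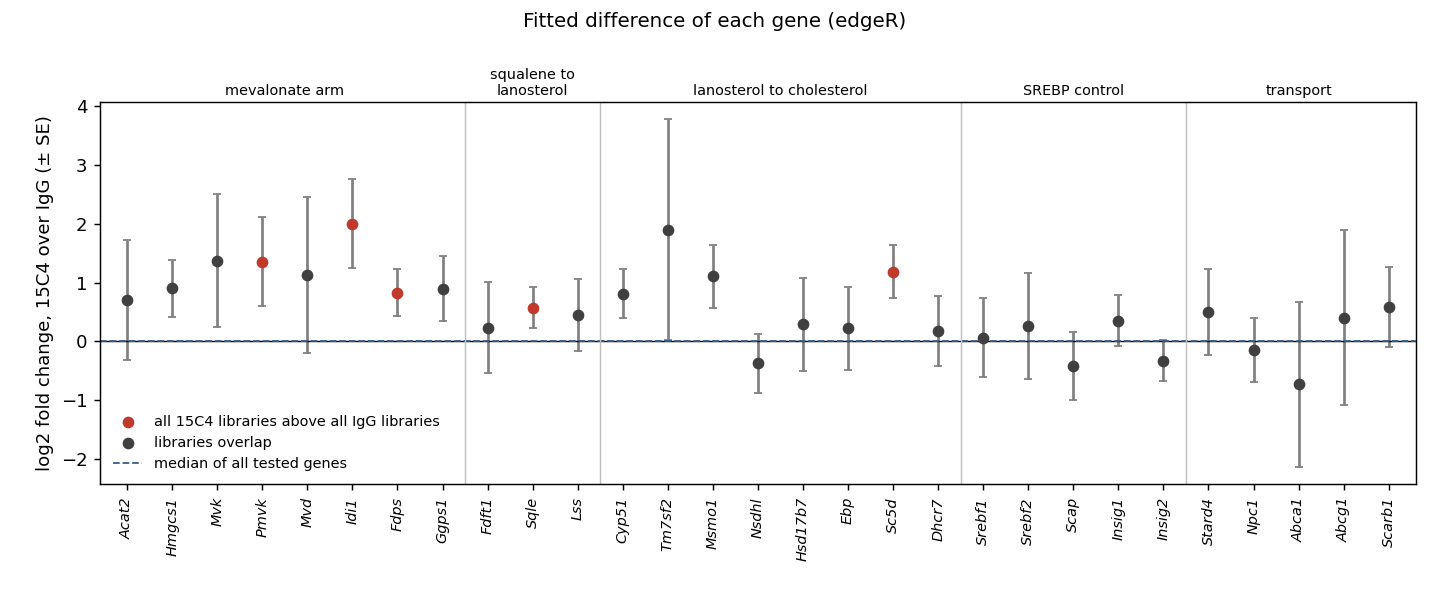
Log2 fold change of 15C4 over IgG (y) with its SE for each of the 29 genes (x), from the edgeR fit on 3 libraries a group; red points are genes whose libraries did not overlap in CPM. Enzymes lie mostly above the dashed median of all tested genes (0.01), and control and transport genes lie on both sides of it.

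The control genes lay close to 0, with log2 fold changes from -0.42 to 0.35. Insig1, the SREBP-induced anchor of SCAP, was at 62.4, 81.9 and 63.5 CPM in 15C4 against 48.1, 62.4 and 63.5 CPM under IgG (log2 fold change 0.35, SE 0.43, edgeR unadjusted p = 0.437). Insig2, the second anchor, was at 376, 336 and 171 CPM against 299, 464 and 397 CPM (-0.33, SE 0.35, edgeR unadjusted p = 0.381). Each gene alone overlapped between the groups, and 15C4 3 was the lowest library for Insig2. Per length of merged exons, Insig2 exceeded Insig1 5.37, 3.65 and 2.39 times in 15C4 and 5.54, 6.62 and 5.57 times in IgG. This ratio was lower in each 15C4 library than in any IgG library, with 15C4 1 close to IgG 1. It was not tested, and the pair was set side by side after its values were seen. Other pairs were also computed per length. Msmo1 over Nsdhl was 1.87, 3.93 and 7.30 in 15C4 against 1.15, 1.57 and 1.76 in IgG, also without overlap. Srebf1 over Srebf2 and Abca1 over Abcg1 overlapped between the groups. The share of such pairs among all genes was not computed.

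Srebf2, which encodes the main activator of the enzymes, was low, at 33.1, 15.9 and 3.44 CPM in 15C4 against 11.98, 13.7 and 18.5 CPM under IgG (log2 fold change 0.27, SE 0.90, edgeR unadjusted p = 0.776). Without 15C4 1 the value was -0.49. Srebf1 was at 63.1, 24.01 and 16.4 CPM against 32.7, 47.7 and 21.5 CPM (0.06, SE 0.67, edgeR unadjusted p = 0.928), or -0.59 without 15C4 1 and -0.15 without IgG 3. Both transcripts were highest in 15C4 1 and lowest in 15C4 3, and the 15C4 libraries spanned the IgG range. Scap, the escort of both proteins, was at 40.9, 27.2 and 16.6 CPM against 39.0, 47.4 and 31.6 CPM (-0.42, SE 0.57, edgeR unadjusted p = 0.486). SREBP activity is set by cleavage of the protein, which RNA counts do not measure.

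Per length, median levels over the 6 libraries spanned from 103 CPM per kilobase for Insig2 to 0.773 for Tm7sf2. After Insig2 came Msmo1 (55.4 CPM per kilobase), Cyp51 (43.0), Sqle (41.2) and Hmgcs1 (35.5). The ranges of all 5 overlapped over the libraries, from 49.1 to 134 CPM per kilobase for Insig2, from 29.4 to 130 for Msmo1 and from 22.9 to 95.9 for Hmgcs1, so their order is not fixed. In 15C4 3 Insig2 lay below both Msmo1 and Cyp51, and in 15C4 2 it lay below Msmo1. Srebf2 (2.06) and Abcg1 (1.29) were among the lowest. Lengths are of merged exons in GENCODE M21 and may differ from those the authors counted over.

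Among transport genes, 3 of 5 were fitted above 0. Abca1, the cholesterol exporter to apolipoproteins, varied widely between libraries of a group, at 15.2, 144 and 3.44 CPM in 15C4 against 38.3, 249 and 8.23 CPM under IgG (log2 fold change -0.73, SE 1.40). The libraries numbered 2 of both groups were the high ones, and these also held the highest endothelial sums, 2824 and 2346 CPM. The order did not hold below them. 15C4 3, with 1448 CPM of endothelial markers, had less Abca1 than IgG 3, with 186 CPM. IgG 2 also held the most lymphatic transcripts, and the part of cell content was not tested. The log2 fold change was 1.32 without IgG 2 and -3.34 without 15C4 2. Abcg1, its partner for export to lipoprotein particles, was at 3.09, 36.4 and 7.35 CPM against 27.1, 11.5 and 0.171 CPM (0.40, SE 1.49), the last being 2 counts. Its log2 fold change became -1.14 on leaving out 15C4 2, -0.17 on leaving out IgG 3 and 1.57 on leaving out IgG 1. Scarb1, the receptor for high-density lipoprotein, was at 53.1, 54.1 and 30.5 CPM against 29.8, 56.6 and 11.1 CPM (0.58, SE 0.68). It was lowest in IgG 3, and its log2 fold change was 0.20 without IgG 3 and 1.23 without IgG 2. Npc1, which releases cholesterol from lysosomes, ranged from 39.7 to 143 CPM in 15C4 against 80.0 to 119 CPM in IgG (-0.14, SE 0.54), and its log2 fold change was 0.03 without 15C4 1, 0.21 without 15C4 2 and -0.85 without 15C4 3. Stard4, a cytosolic sterol carrier, was even within 15C4 at 24.6 to 31.4 CPM and ranged from 9.65 to 38.8 CPM in IgG (0.50, SE 0.73). Its log2 fold change was 1.27 without IgG 1 and 0.14 without IgG 2.

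Among other genes of the pathway, 0 passed the test in either direction, and 0 had an unadjusted p under 0.05 by edgeR. Of 11 further genes around SREBP2, 10 were tested, with 3 fitted above and 7 below 0 (median -0.25). Tmem97, a sterol-regulated binding partner of NPC1, was at 65.2, 62.6 and 65.4 CPM in 15C4 against 33.4, 21.3 and 50.7 CPM under IgG (log2 fold change 0.96, SE 0.52). Its libraries did not overlap. Lbr, a nuclear membrane protein with the same reductase activity as Tm7sf2, was at 26.2, 58.4 and 69.6 CPM against 118, 102 and 45.8 CPM (-0.66, SE 0.58). For fatty acid genes of SREBP1, 8 of 14 tested were above and 6 below 0 (median 0.03). They included Scd1, a fatty acid desaturase, at 180, 264 and 186 CPM against 175, 111 and 112 CPM (0.76, SE 0.37), and Fads1, also a desaturase, at 32.7, 38.0 and 198 CPM against 43.7, 18.7 and 38.4 CPM (1.57, SE 0.82). Of the 14, 1 gene, Scd1, had every 15C4 library above every IgG library and 1, Lpin1, every one below. Over all tested genes these shares were 2.88% and 6.64%.

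The 12 genes of isoprenoid branches, which use the products of Fdps and Ggps1, split into 8 above and 4 below 0 (median 0.45). In CPM, 1 of them, Pdss2, had every 15C4 library above every IgG library and 1, Icmt, every one below. Pggt1b, a prenyltransferase subunit, was at 154, 53.8 and 69.8 CPM against 46.0, 63.9 and 53.4 CPM (0.82, SE 0.49), and Coq2, of ubiquinone synthesis, at 47.7, 48.1 and 68.7 against 22.03, 48.9 and 23.3 CPM (0.92, SE 0.56). Of LXR and oxysterol genes, 7 of 10 could be tested, with 3 above and 4 below 0 (median -0.29). Ch25h, which makes an oxysterol that retains SREBP, was at 122, 81.2 and 151 CPM against 84.2, 59.5 and 7.20 CPM (1.33, SE 0.78). Lpcat3, an LXR target, was below the IgG libraries in every 15C4 library, at 50.5, 44.1 and 18.3 against 53.5, 62.7 and 53.6 CPM (-0.53, SE 0.53). In the 15 genes of further transport and storage, 8 were above and 7 below 0 (median 0.03). Stard5, a sterol carrier, was at 28.6, 46.1 and 21.4 CPM against 9.47, 17.1 and 3.17 CPM (1.79, SE 0.83), without overlap. Soat1, which esterifies cholesterol for storage, was at 67.9, 115 and 37.9 CPM against 150, 179 and 105 CPM (-0.89, SE 0.48).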

How the data were processed

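Each library's file holds the count of reads per gene symbol that the authors deposited. The submitters' processing notes list the tools fastp, STAR 2.5b, featureCounts and DESeq2, and mm10 with mm9 as builds. The sources used here do not say which of these builds or which annotation was counted, or whether strand was used. Per the labels' protocols, cDNA was amplified by PCR before Nextera XT library preparation. A table for the whole series repeats the counts, equal in all 146364 values compared. From it came the log2 fold change, p-value and adjusted p-value that the authors deposited, used only where named.

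The members and gene lists were chosen with earlier results of these data known. Genes were kept by filterByExpr (minimum count 10, total 15), normalised by TMM and tested in edgeR 4.0.16 under R 4.3.3 (glmQLFit and glmQLFTest), treatment being the only term, with Benjamini-Hochberg adjustment over 11144 genes and a threshold of 0.05. The SE is the absolute log2 fold change over the square root of F. Full statistics were given for members with an unadjusted p under 0.05 or groups without overlap, and for the control genes. From each further list the 2 genes with the smallest p were named. Alternatives were DESeq2 1.42.0, limma-voom (limma 3.58.1), other normalisations and filters, a replicate block and each library left out. Intervals for a count of 0 cover counting error only, since PCR reads are not independent molecules. Exon lengths are from GENCODE M21 on GRCm38.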

Additional observations from a re-analysis of the deposited data

How the results depend on the processing

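Mvd, Tm7sf2 and Abcg1 had 1, 0 and 2 counts in their lowest libraries, 15C4 3, 15C4 2 and IgG 3, none of which was the shallowest. No member passed an adjusted p of 0.05 in any setting run. Over all genes, DESeq2 called 23 and edgeR without a filter on low counts called 1, against 0 in the other fits (288 at an unadjusted p under 0.05 in edgeR, 461 in limma-voom). An unadjusted p under 0.05 was met by 0 members with the replicate block (207 of 11144 genes) and without 15C4 2 (625 of 11609), IgG 1 (232 of 11524) or IgG 2 (220 of 11519). It was met by 4 without 15C4 1 (672 of 11767), by 3 without 15C4 3 (542 of 11836) or IgG 3 (285 of 11646), in DESeq2 (455 of 11144) and with no filter (569 of 16089), and by 2 in the other fits. Tm7sf2 did not reach a mean count of 50 and has no value there. Members fitted above 0 numbered 20 with the replicate block and between 21 and 24 elsewhere, against 24. The labels do not say whether their numbers pair the libraries. Deviations of libraries with the same number correlated at -0.04, 0.06 and 0.10, and not every library correlated best with its own number. Correlations this weak cannot decide whether the libraries are paired. Members with every 15C4 library above every IgG library numbered 3 with TMM factors (3.58% of all genes), 4 with DESeq2 size factors (3.83%), and from 6 to 10 with a library left out (10 without 15C4 1, 8 without 15C4 2), where 5.16% to 8.47% of all genes did so. With a library left out, 10.6% to 17.9% of all genes lay below, and so did 1 member in each case except without IgG 3, where 0 did. The log2 ratio of the summed enzymes lay between 0.46 and 0.88 in every alternative, against 0.70.

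The fitted direction was kept in all settings for 18 of 29 members. With a library left out, log2 fold changes that turned ranged from -0.89 to 1.24 for Acat2, -0.39 to 0.99 for Fdft1, -0.27 to 0.79 for Hsd17b7, -0.50 to 0.71 for Ebp, -0.17 to 0.41 for Dhcr7, -0.59 to 0.38 for Srebf1, -0.49 to 0.74 for Srebf2, -0.85 to 0.21 for Npc1, -3.34 to 1.32 for Abca1 and -1.14 to 1.57 for Abcg1. limma-voom gave -1.18 for Tm7sf2, -0.58 for Ebp and -0.0017 for Srebf1. The replicate block gave -0.27 for Acat2, -0.20 for Ebp, -0.058 for Srebf1 and -0.086 for Srebf2. The cause was not tested.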
